A study of Mus musculus with 12 samples.

Results

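The genes described here are the Cyp2 and Cyp3 cytochrome P450 genes expressed in the livers of ob/ob mice with and without ethionine. Members were all protein-coding genes with a symbol of the form Cyp2 or Cyp3, letters and a number, that held at least 10 counts in at least 6 of the 12 libraries. The rule gave 42 members out of 56 such genes in the count table, which lists 56205 genes, and all 42 were among the 13416 genes tested. The 14 genes below the rule had at most 10 counts in any library. RNA was extracted from the whole livers of 12 mice that lack leptin (B6.Cg-Lepob/J), per the study's methods males of 8 to 10 weeks of age at the start. The labels assign 6 mice to the FLO group, kept on standard chow, and 6 to the fibrotic group, kept on the same chow with DL-ethionine. Ethionine is the ethyl analogue of methionine and is toxic to the liver. The ethionine dose and route are not settled by the labels, since some name 0.165% in drinking water over 2 weeks and others a 0.15% injection. The methods name drinking water too, at 0.15% and for 1 week. Both groups share the ob/ob background, so no lean liver is compared.

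Cytochrome P450 enzymes are heme proteins of the endoplasmic reticulum that insert an oxygen atom into drugs, steroids, fatty acids and other lipophilic compounds. Microsomal P450s draw their electrons from P450 oxidoreductase, with cytochrome b5 as a second donor for some reactions. In hepatocytes the Cyp2 and Cyp3 genes are controlled by the nuclear receptors CAR and PXR, which sense foreign compounds, by liver factors such as HNF4A, and in rodents by the sex-specific pattern of growth hormone release. Many of them form tandem clusters of near-identical copies in the mouse.

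The libraries held 17815568 to 24814263 counts. On the first principal component of all genes, which carried 59.7% of the variance, the fibrotic and FLO libraries did not overlap. The share of counts from mitochondrial genes was 4.93% to 7.88% in fibrotic and 7.30% to 10.2% in FLO libraries. One library did not match the stated sex: FLO replicate 3 held 3773 counts of Xist, the RNA of the inactive X chromosome, against 0 to 4 in the other libraries, and 4 counts of the Y-linked gene Ddx3y against 556 to 977. Since several members are expressed at sex-dependent levels, results that rest on this library are given with and without it. FLO replicate 3 lay above all other FLO libraries for 11 members, below them for 7 and inside their range for 24.

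Fibrotic livers held lower levels of 18 of the 42 members and higher levels of 3 (called at FDR ≤ 0.01 and |log2FC| > 0.5 by edgeR's quasi-likelihood test with Benjamini-Hochberg adjustment, FDR being the adjusted p and log2FC the log2 fold change, fibrotic minus FLO). The 3 higher members were Cyp2a4, Cyp3a16 and Cyp3a59, and 12 of the lower members had a log2FC below -2, led by Cyp2c54 and Cyp2j5. Of the higher members, Cyp3a16 met the rule of at least 10 counts only through its fibrotic libraries. With 10 counts required in every library, 37 members were tested, 2 being called higher and 16 lower. Over all genes tested, 14.0% were called lower, 15.9% higher and 29.9% in either direction. The median log2FC was -0.58 over the members and 0.03 over all genes tested. In 16 members every fibrotic library was below every FLO library and in 2 every one was above, against 15.1% and 15.3% of all genes tested (30.4% in either direction). Without FLO replicate 3, 17 members were called lower and 3 higher. RNA was measured in whole liver, so fewer cells of a type and less RNA per cell cannot be told apart.

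**Figure D1:**
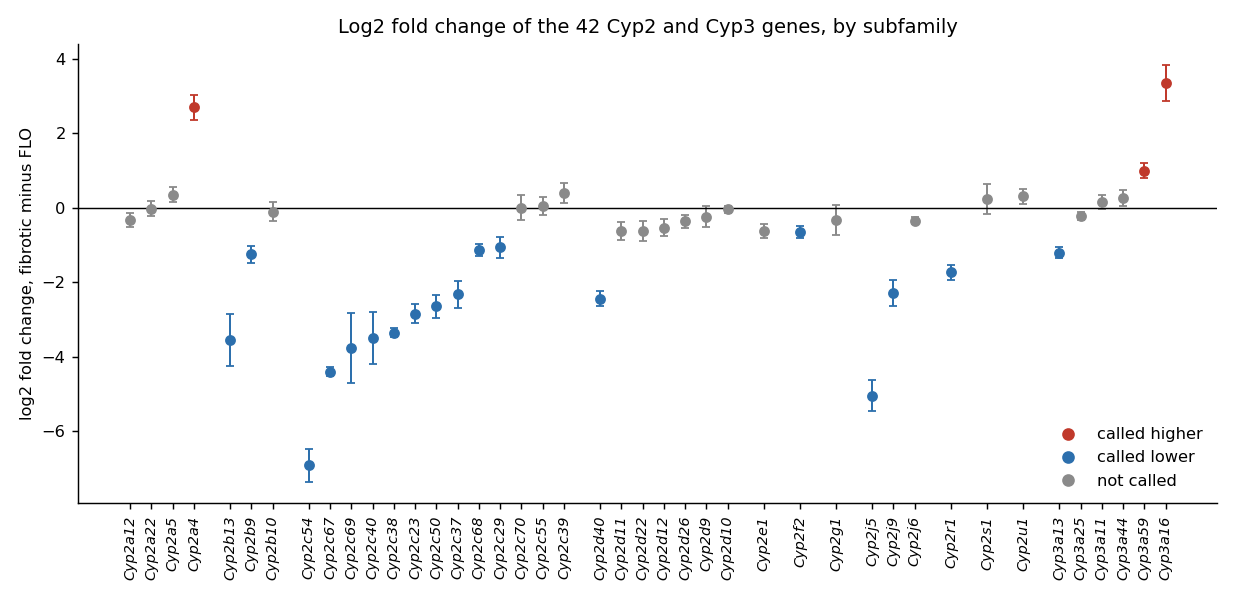
Log2 fold change (fibrotic minus FLO, y axis) of each of the 42 members with its standard error (bars), grouped by subfamily along the x axis and coloured by the call at FDR ≤ 0.01 and |log2FC| > 0.5. The 10 called Cyp2c genes run from -6.92 to -1.06, and the 3 higher members, 1 in Cyp2a and 2 in Cyp3a, from 0.99 to 3.34.

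The members' share of all counts overlapped between the groups. As a share of raw counts, without scaling between libraries, it was 2.14% ± 0.235 in fibrotic livers against 2.27% ± 0.2 in FLO livers (SD, n = 6 each). A few abundant genes made up much of it. Per kilobase of transcript, the most abundant member in FLO livers was Cyp2e1 at 2653 CPM per kb (CPM being counts scaled to the TMM-normalized depth of each library), followed by Cyp3a11 (1657), Cyp2a5 (1354), Cyp2f2 (1054) and Cyp2c29 (903). In fibrotic livers the order was Cyp3a11 (1841), then Cyp2a5 and Cyp2e1 (both 1728), then Cyp2a4 (1016). Cyp2a4 thus went from rank 14 to rank 4. By counts, Cyp2e1 made up 20.1% of the members' CPM in FLO and 15.7% in fibrotic livers, Cyp3a11 16.0% and 21.3%, and Cyp2a5 11.3% and 17.2%.

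By subfamily, the summed CPM of the members did not overlap between groups for the multigene subfamilies Cyp2b, Cyp2c and Cyp2j, all lower in fibrotic livers. The Cyp2c sum was 1241 ± 515 CPM in fibrotic and 3733 ± 795 CPM in FLO libraries (SD, n = 6 each), a log2 ratio of -1.59. For Cyp2b the sums were 274 ± 94.3 and 686 ± 176 CPM (log2 ratio -1.33), and for Cyp2j 69.3 ± 16.0 and 557 ± 60.8 CPM (log2 ratio -3.01). The sum of the single gene Cyp2r1 did not overlap either, and those of the other subfamilies did. They were 6050 ± 1181 against 3974 ± 902 CPM for Cyp2a, 2800 ± 578 against 3453 ± 338 CPM for Cyp2d, and 5374 ± 1544 against 4948 ± 1034 CPM for Cyp3a. These sums were not tested.

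**Figure D2:**
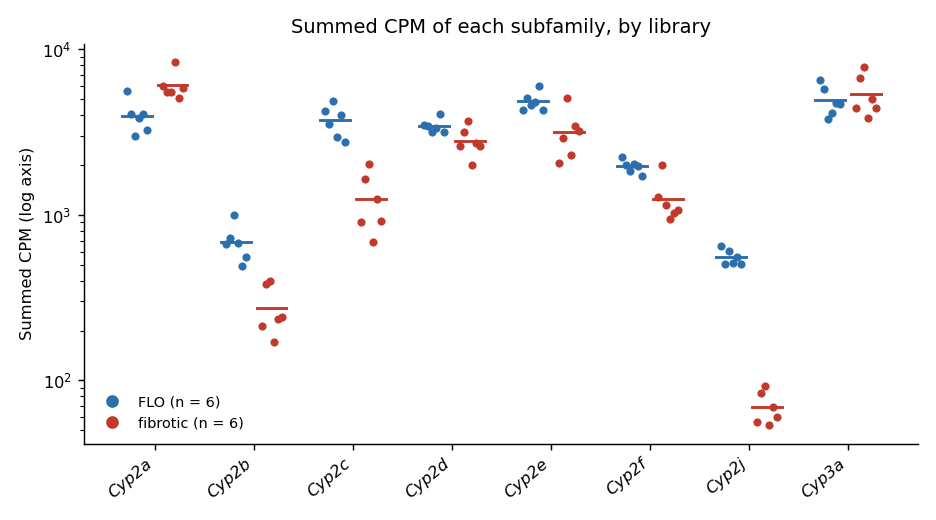
Summed CPM of the members of each subfamily (y axis, log scale) in every library, with the group means as horizontal lines (6 FLO and 6 fibrotic libraries). The groups are apart for Cyp2b, Cyp2c and Cyp2j and overlap for Cyp2a, Cyp2d, Cyp2e, Cyp2f and Cyp3a.

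The Cyp2a subfamily held 1 called gene of 4, and it rose. Cyp2a4, a steroid 15-alpha-hydroxylase that is higher in females, spanned 1011 to 3141 CPM (median 1512) in fibrotic livers, against 115 to 419 CPM (median 244) in FLO livers. All fibrotic libraries lay above all FLO libraries, a log2FC of 2.69 (SE 0.34, FDR = 2.11e-05), or 6.47-fold. SE is the standard error of the log2FC. Its neighbour Cyp2a5, the coumarin 7-hydroxylase, spanned 2907 to 4853 CPM (median 3262) in fibrotic livers, against 1760 to 4197 CPM (median 2650) in FLO livers. The groups overlapped and the log2FC of 0.35 (SE 0.19, FDR = 0.132) was not called. The other members were Cyp2a12, a steroid 7-alpha-hydroxylase (log2FC -0.33), and Cyp2a22 (log2FC -0.03), and neither passed.

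Cyp2a4 (chr7:26307169-26315088) and Cyp2a5 (chr7:26835305-26843548, both GENCODE M21, GRCm38, plus strand) are copies of each other. Their coding sequences were 98.5% identical, with 23 differing bases of 1485, and their proteins differed at 12 of 494 positions. Of the 50-base windows of Cyp2a4 transcripts, 38.0% also occur in another Cyp2 or Cyp3 gene, so reads of the pair can be assigned to either gene in those stretches. Windows were compared only with transcripts of the Cyp2 and Cyp3 genes, pseudogenes included, and not with the rest of the genome. The stretch below, coding bases 596 to 655 from the GENCODE M21 transcripts, is shown because it holds 4 of the differences, here in capitals.
Cyp2a4: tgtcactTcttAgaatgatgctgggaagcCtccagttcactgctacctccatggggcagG
Cyp2a5: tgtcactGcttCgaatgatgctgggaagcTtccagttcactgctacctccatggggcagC
With both genes counted as 1 feature, the log2FC was 0.81 (FDR = 0.00296). The similarity goes on upstream of the genes. The 120 bases before each GENCODE M21 start (sequence from RefSeq promoters, GRCm38.p6) could be aligned over 110 bases, in which 3 bases differed, again in capitals. The RefSeq starts lie downstream of these, at 26307192 and 26835339, and the bases between are not shown.
Cyp2a4, chr7:26307049-26307168: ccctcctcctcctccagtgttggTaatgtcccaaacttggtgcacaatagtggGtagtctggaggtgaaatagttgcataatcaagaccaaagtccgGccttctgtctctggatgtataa
Cyp2a5, chr7:26835185-26835304: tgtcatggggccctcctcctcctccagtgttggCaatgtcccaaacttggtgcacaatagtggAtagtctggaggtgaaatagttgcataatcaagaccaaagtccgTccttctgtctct
The windows end at starts annotated at slightly different places, so the common bases stand 10 positions further left in Cyp2a4.

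The Cyp2b subfamily, classically induced by phenobarbital, held 2 lower genes of 3. Cyp2b13, a female-biased gene, spanned 3.97 to 55.7 CPM (median 10.1) in fibrotic livers, against 76.5 to 451 CPM (median 192) in FLO livers. The groups did not overlap, and the log2FC was -3.55 (SE 0.70, FDR = 0.00139). The highest FLO value was that of FLO replicate 3, and without it the log2FC was -3.17 (FDR = 0.00253). The highest fibrotic value, 55.7 CPM, was that of replicate 3, and without it the log2FC of Cyp2b13 was -4.34. Cyp2b9, also female-biased and the most abundant of the subfamily per kb in both groups, spanned 82.5 to 216 CPM (median 152) in fibrotic livers, against 233 to 458 CPM (median 400) in FLO livers. It fell without overlap (log2FC -1.25, SE 0.23, FDR = 0.000433). Cyp2b10, the gene most used as a readout of CAR activation, spanned 50.6 to 146 CPM (median 95.4) in fibrotic livers, against 79.0 to 178 CPM (median 92.2) in FLO livers. It was not called (log2FC -0.11, SE 0.25, FDR = 0.737).

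Cyp2c was the subfamily with most calls, 10 lower and 0 higher of 13, with 3 not called. Its enzymes act on drugs, on steroids and, in several mouse members, on arachidonic acid. The median log2FC of the 13 genes was -2.65. Cyp2c54, an arachidonic acid-metabolising member, fell most. It spanned 0.63 to 2.6 CPM (median 1.09) in fibrotic livers, which is 13 to 51 counts, against 85.3 to 282 CPM (median 123) in FLO livers. The log2FC was -6.92 (SE 0.45, FDR = 1.35e-07), or 121-fold lower. Cyp2c29, the most abundant Cyp2c gene per kb in both groups, spanned 398 to 1381 CPM (median 702) in fibrotic livers, against 1125 to 1993 CPM (median 1619) in FLO livers. The groups overlapped, and its log2FC of -1.06 (SE 0.28, FDR = 0.00603) lost the call when any 1 of 8 libraries was left out (fibrotic replicates 1, 4, 5 and 6 and FLO replicates 1, 2, 3 and 5), with FDR = 0.0128 without FLO replicate 3.

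Between these lay 8 more genes that fell without overlap. Cyp2c67 spanned 5.73 to 7.75 CPM in fibrotic livers, against 127 to 166 CPM in FLO livers, a log2FC of -4.40 (SE 0.12). Cyp2c38 spanned 13.1 to 21.7 CPM in fibrotic livers, against 147 to 177 CPM in FLO livers, a log2FC of -3.36 (SE 0.12). Both had a narrow spread within each group. Of the 50-base windows of Cyp2c67, 52.8% also occur in other Cyp2 or Cyp3 genes, so its level depends on how shared reads were assigned. Cyp2c50 (log2FC -2.65), Cyp2c37 (-2.33) and Cyp2c68 (-1.14) fell too, as did Cyp2c23 (-2.85), the arachidonic acid epoxygenase that lies apart from the other genes of the cluster. The 2 female-biased members of the subfamily, Cyp2c40 and Cyp2c69, rested in part on FLO replicate 3. Cyp2c40 stood at 165 CPM in that library, from 15.1 to 32.4 CPM in the other FLO libraries and from 2.97 to 5.19 CPM in the fibrotic ones. Its log2FC of -3.51 (SE 0.70, FDR = 0.00147) became -2.37 (FDR = 4.97e-07) without it. Cyp2c69 stood at 41.2 CPM in FLO replicate 3, from 2.43 to 6.45 CPM in the other FLO libraries and from 0.14 to 1.48 CPM, or 3 to 29 counts, in the fibrotic ones. Its log2FC of -3.76 (SE 0.94, FDR = 0.00555) became -2.30 (FDR = 0.00128) without that library. The call of Cyp2c69 was lost when any 1 fibrotic library other than replicate 2 was left out (FDR = 0.0168 without replicate 4).

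The 3 members of the subfamily that did not pass lay in the same chromosomal cluster. Cyp2c70, which makes the muricholic acids of rodent bile, spanned 41.9 to 187 CPM (median 97.7) in fibrotic livers, against 78.8 to 167 CPM (median 100) in FLO livers (FDR = 0.994). The means of the groups were 107 CPM in both. Cyp2c55 (log2FC 0.04) and Cyp2c39 (log2FC 0.39) were the others. Along chromosome 19 the 12 genes from Cyp2c55 to Cyp2c70 lie between positions 39007019 and 40187333 (GENCODE M21, GRCm38). Of the genes not called, Cyp2c55 and Cyp2c70 lie at the ends of this row and Cyp2c39 lies between Cyp2c38 and Cyp2c67, both of which fell.

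**Figure D3:**
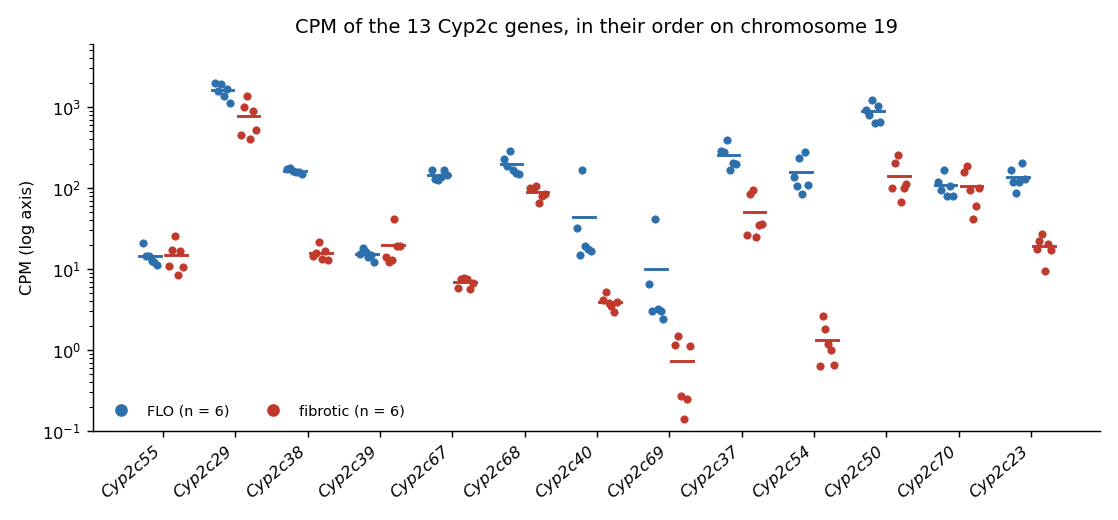
CPM (y axis, log scale) of the 13 Cyp2c genes in every library, ordered along chromosome 19 on the x axis, with group means as lines (6 FLO and 6 fibrotic libraries). Cyp2c54 stands apart with 0.63 to 2.6 CPM in fibrotic and 85.3 to 282 CPM in FLO livers, while Cyp2c55, Cyp2c39 and Cyp2c70 overlap.

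Several of these genes are close copies. Cyp2c37 and Cyp2c50 were 96.1% identical over the coding sequence, Cyp2c50 and Cyp2c54 95.2%, and Cyp2c37 and Cyp2c54 95.1%. Coding bases 791 to 850 are shown because 13 of the 98 positions at which the 3 genes differ lie there, in capitals.
Cyp2c37: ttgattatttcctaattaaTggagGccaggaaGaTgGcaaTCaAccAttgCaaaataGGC
Cyp2c50: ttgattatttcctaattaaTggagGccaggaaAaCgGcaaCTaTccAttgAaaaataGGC
Cyp2c54: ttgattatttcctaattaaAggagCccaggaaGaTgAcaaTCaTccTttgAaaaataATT
Of the 50-base windows of Cyp2c54, 25.7% occur in another Cyp2 or Cyp3 gene, and the share was 16.6% for Cyp2c50 and 30.1% for Cyp2c37. All 3 genes fell. Cyp2c67, Cyp2c68 and Cyp2c69 were 96.5% to 97.7% identical in pairs, and counted as 1 feature (Cyp2c68 and Cyp2c69 being joined through Cyp2c67) they had a log2FC of -1.86 (FDR = 5.97e-08). That feature leaves out Cyp2c40, the gene with which Cyp2c67, Cyp2c68 and Cyp2c69 each shared most windows (673, 597 and 739). Reads split with Cyp2c40 are therefore not joined by it. Cyp2c40 shared 72.1% of its windows with other Cyp2 or Cyp3 genes, the highest share of any member, while Cyp2c23 and Cyp2c70 shared 0.

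**Figure D4:**
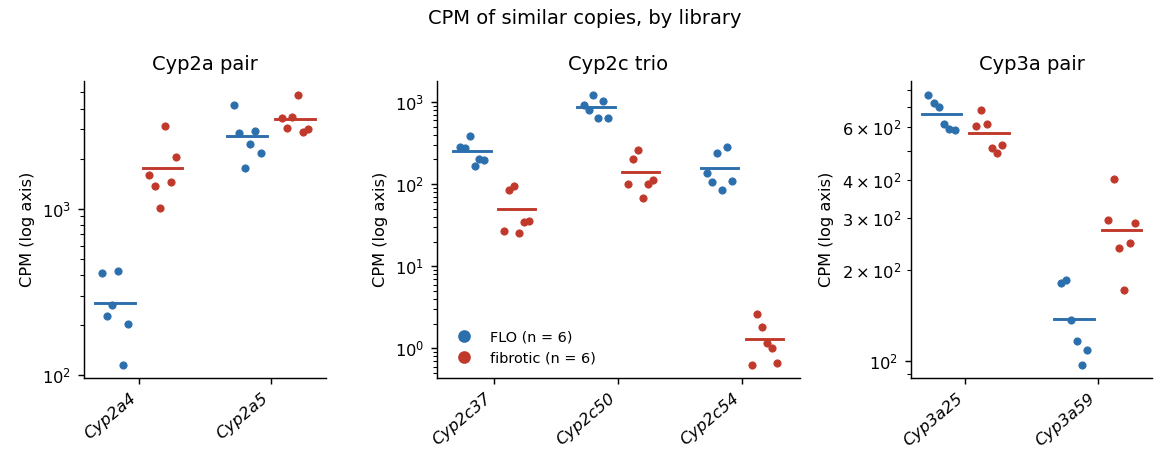
CPM (y axes, log scale) of 3 sets of similar copies in every library, with group means as lines (6 FLO and 6 fibrotic libraries). Cyp2a4 is higher in all fibrotic libraries while Cyp2a5 overlaps, all 3 Cyp2c genes are lower, and Cyp3a59 is higher on average while Cyp3a25 is not.

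In the Cyp2d subfamily 1 gene of 7 fell and none was higher. Cyp2d40 spanned 13.9 to 32.1 CPM (median 21.7) in fibrotic livers, against 102 to 156 CPM (median 118) in FLO livers. The groups were far apart (log2FC -2.44, SE 0.20, FDR = 3.02e-07). Cyp2d26, the most abundant Cyp2d gene per kb in both groups, spanned 593 to 1538 CPM (median 1107) in fibrotic livers, against 1345 to 1559 CPM (median 1497) in FLO livers, and was not called (log2FC -0.37, SE 0.18, FDR = 0.092). Cyp2d10, with 839 to 1161 CPM in fibrotic and 962 to 1235 CPM in FLO libraries, had a log2FC of -0.05 (SE 0.10). Cyp2d9, the male-biased testosterone 16-alpha-hydroxylase, spanned 309 to 719 CPM (median 375) in fibrotic livers, against 255 to 956 CPM (median 469) in FLO livers. The lowest FLO value was that of FLO replicate 3, and the log2FC was -0.25 (FDR = 0.489) with it and -0.39 (FDR = 0.221) without it. Cyp2d22, Cyp2d11 and Cyp2d12 had log2FC values of -0.63, -0.63 and -0.54 and were not called.

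The single-gene subfamilies Cyp2e and Cyp2f are abundant in the mouse liver. Cyp2e1, which oxidises ethanol, acetaminophen and other small molecules in pericentral hepatocytes, spanned 2067 to 5100 CPM (median 3057) in fibrotic livers, against 4291 to 6044 CPM (median 4729) in FLO livers. The groups overlapped through fibrotic replicate 3, the only fibrotic library above the lowest FLO library. The log2FC was -0.62 (SE 0.19, FDR = 0.0117), just outside the threshold, and without fibrotic replicate 3 it was -0.80 (FDR = 0.000484). Cyp2f2, the naphthalene-oxidising and periportal member, spanned 944 to 1996 CPM (median 1113) in fibrotic livers, against 1716 to 2232 CPM (median 1992) in FLO livers. It fell by 0.66 on the log2 scale (SE 0.16, FDR = 0.00299), again with overlap. Neither gene shared a 50-base window with another Cyp2 or Cyp3 gene.

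Cyp2j5, an arachidonic acid epoxygenase of liver and kidney, spanned 4.6 to 31.9 CPM (median 13.2) in fibrotic livers, against 429 to 575 CPM (median 461) in FLO livers. No fibrotic library came near the FLO range. Its log2FC was -5.05 (SE 0.42, FDR = 7.84e-07), or 33.0-fold lower, and only 0.174% of its windows occur in another Cyp2 or Cyp3 gene. Cyp2j9 fell from a median of 5.01 to 1.24 CPM (log2FC -2.29, SE 0.35, FDR = 6e-05), at 4 to 31 counts per fibrotic library. Cyp2j6 did not meet the fold threshold (log2FC -0.35, SE 0.09, FDR = 0.00446). Cyp2j5 was the most abundant gene of its subfamily per kb in FLO livers, at 206 CPM per kb, and in fibrotic livers Cyp2j6 was, at 14.9 CPM per kb.

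In the Cyp3a subfamily 2 genes of 6 rose and 1 fell. Cyp3a11, the main PXR-inducible Cyp3a of adult mouse liver, spanned 2997 to 6672 CPM (median 3780) in fibrotic livers, against 2718 to 5257 CPM (median 3763) in FLO livers. It was not called (log2FC 0.15, SE 0.20, FDR = 0.555). Cyp3a16, a fetal and neonatal form, spanned 1.31 to 8.96 CPM (median 4.74) in fibrotic livers, against 0.0489 to 0.688 CPM (median 0.442) in FLO livers, which is 26 to 185 and 1 to 12 counts. All fibrotic libraries were higher (log2FC 3.34, SE 0.49, FDR = 5.5e-05), from a low level. Cyp3a16 met the member rule of at least 10 counts only through these fibrotic libraries. Cyp3a13 fell without overlap, from 125 to 151 CPM in FLO to 40.2 to 86.8 CPM in fibrotic libraries (log2FC -1.21, SE 0.14, FDR = 5.31e-06).

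Cyp3a59 spanned 172 to 402 CPM (median 268) in fibrotic livers, against 96.7 to 185 CPM (median 127) in FLO livers. It rose by a log2FC of 0.99 (SE 0.20, FDR = 0.000936), with overlap at the edges of the groups. Its copy Cyp3a25 spanned 493 to 686 CPM (median 564) in fibrotic livers, against 587 to 772 CPM (median 659) in FLO livers and was not called (log2FC -0.22, SE 0.11, FDR = 0.106). The coding sequences of the 2 genes were 97.5% identical. Coding bases 290 to 349 hold 7 of the 38 differences, in capitals.
Cyp3a25: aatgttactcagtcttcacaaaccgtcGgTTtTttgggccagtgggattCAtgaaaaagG
Cyp3a59: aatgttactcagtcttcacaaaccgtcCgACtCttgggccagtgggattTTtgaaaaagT
Counted as 1 feature they had a log2FC of 0.08 (FDR = 0.634), and the pair as a whole was not called. Of the windows of Cyp3a59, 28.0% occur in another Cyp2 or Cyp3 gene.

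The remaining members each stand alone in their subfamily. Cyp2r1, the vitamin D 25-hydroxylase, fell from 9.54 to 19.1 CPM in FLO to 2.24 to 5.38 CPM in fibrotic libraries (log2FC -1.73, SE 0.20, FDR = 5.91e-06). Cyp2u1, a fatty acid hydroxylase, had a log2FC of 0.30 and was not called. Cyp2g1, an enzyme of the olfactory mucosa, and Cyp2s1 stayed under 1.5 CPM in all libraries and were not called either.

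Of 7 members known for pericentral expression, Cyp2c29, Cyp2c37, Cyp2c50 and Cyp2c54 fell and Cyp2a5, Cyp2e1 and Cyp3a11 were not called. Of 5 members inducible through CAR or PXR, Cyp2c29 and Cyp2c37 fell and Cyp2b10, Cyp2c55 and Cyp3a11 were not called. Over all genes tested 14.0% were called lower, and the lists share genes. The summed CPM of either list overlapped between the groups, at 9492 to 17069 against 12254 to 17090 CPM and at 3513 to 8307 against 4822 to 7651 CPM.

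The female-biased genes did not move in 1 direction. The list, chosen with earlier results of these data known, holds 9 genes: 7 members and the pair Cyp3a41a and Cyp3a41b, whose symbols end in a letter and which the rule leaves out. Of the 8 tested, Cyp2a4, Cyp3a16 and Cyp3a41a rose, Cyp2b9, Cyp2b13, Cyp2c40 and Cyp2c69 fell, and Cyp3a44 was not called (log2FC 0.26, FDR = 0.335). Cyp3a41a spanned 91.0 to 287 CPM (median 195) in fibrotic livers, against 23.5 to 37.3 CPM in the FLO libraries other than replicate 3, which held 140 CPM. Its log2FC was 1.99 (SE 0.52, FDR = 0.0077), and 2.69 (FDR = 3.92e-05) without that library. Cyp3a41b was not tested, with 0 counts in every FLO library and 0 to 451 counts in the fibrotic ones. The coding sequences of that pair differ at 2 of 1515 bases. The summed CPM of the 9 genes did not overlap and was higher in fibrotic livers (1637 to 3465 against 580 to 1610 CPM, log2 ratio 1.09), with Cyp2a4 alone at 1011 to 3141 against 115 to 419 CPM. The highest FLO sum was that of FLO replicate 3, so the groups do not overlap without it either. Summed over the Cyp3a41 pair, fibrotic libraries held 95.4 to 308 CPM and FLO libraries 23.5 to 140 CPM, the highest being FLO replicate 3.

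**Figure D5:**
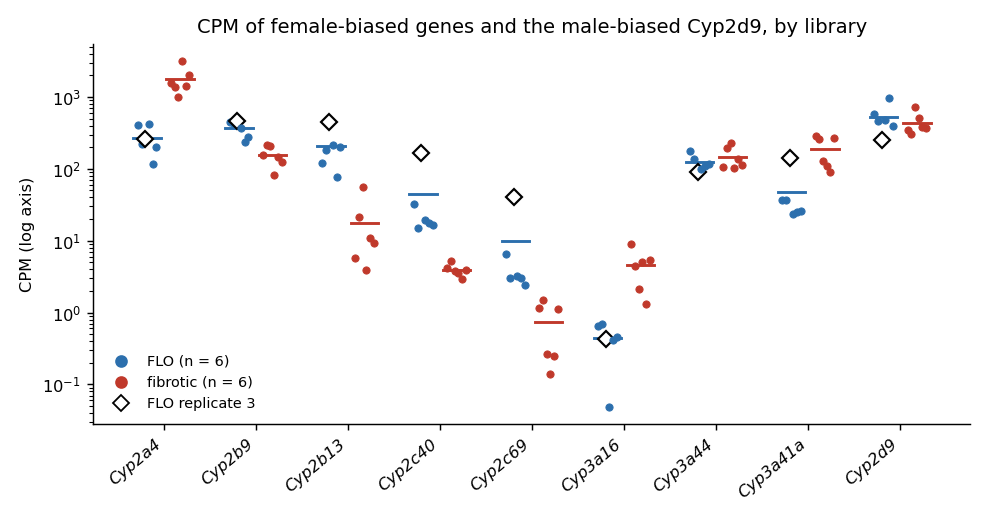
CPM (y axis, log scale) of 8 female-biased genes and of the male-biased Cyp2d9 in every library, with group means as lines (6 FLO and 6 fibrotic libraries) and FLO replicate 3 as an open diamond. Cyp2a4 and Cyp3a16 are higher and Cyp2b9, Cyp2b13, Cyp2c40 and Cyp2c69 lower in all fibrotic libraries, and FLO replicate 3 is far above the other FLO libraries for Cyp2c40 (165 CPM), Cyp2c69 (41.2 CPM) and Cyp3a41a (140 CPM). FLO replicate 3 is also above them for Cyp2b9 (458 CPM) and Cyp2b13 (451 CPM). For Cyp2a4 (263 CPM) and Cyp3a16 (0.427 CPM) that library is inside their range, and for Cyp3a44 (91.8 CPM) below it.

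Promoters were compared by the letters they hold. RefSeq promoters (250 bases before to 50 after the start, GRCm38.p6) were found for 36 of the 42 members, 38 promoters in all. The HNF4 element CAAAGTCCA, searched on both strands, occurred in 7 of these 38 promoters, each of a different member, and in 0.475% of 32851 promoters of all genes. The 7 were Cyp2c40, Cyp2c67, Cyp2c68, Cyp2c69, Cyp2c70, Cyp3a11 and Cyp3a16, of which Cyp2c67, Cyp2c68 and Cyp2c69 are close copies. Of these 7 genes, 4 fell, 1 rose and 2 were not called. Shown for 1 gene of each outcome are 120 bases, all on the minus strand, with the element in capitals. They end before the RefSeq or the GENCODE M21 start, whichever lies further upstream. For Cyp2c70 that is the GENCODE start, and the element lies at -64 to -56 from its RefSeq start at 40187286.
Cyp2c40 (fell), chr19:39812815-39812934: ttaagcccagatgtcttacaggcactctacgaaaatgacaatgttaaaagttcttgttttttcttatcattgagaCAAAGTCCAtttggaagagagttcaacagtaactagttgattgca
Cyp2c70 (not called), chr19:40187334-40187453: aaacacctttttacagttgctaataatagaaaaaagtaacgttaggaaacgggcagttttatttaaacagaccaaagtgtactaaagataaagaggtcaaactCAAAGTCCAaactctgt
Cyp3a16 (rose), chr5:145469724-145469843: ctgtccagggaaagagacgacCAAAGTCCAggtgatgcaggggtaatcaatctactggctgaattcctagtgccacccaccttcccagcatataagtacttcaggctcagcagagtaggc
The TATA box letters TATAAA, searched on both strands and at any position, occurred in 22 of the 38 promoters and in 13.6% of all promoters. Some of these matches lay after the start, as in Cyp2c40 and Cyp2c69, or on the opposite strand, as in Cyp2d9 and Cyp2d10. The STAT5 element TTCNNNGAA occurred in 0 of the 38 and in 8.3% of all. Hnf4a itself was not called, with 410 to 549 CPM in fibrotic and 425 to 604 CPM in FLO libraries (log2FC -0.08, FDR = 0.536). A match is a match of letters only.

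Of the regulators of these genes, 1 of 14 rose and 2 fell, which is not above the 15.9% of all genes tested called higher and near the 14.0% called lower. Nr1i3, which encodes CAR, spanned 8.55 to 52.3 CPM (median 24.4) in fibrotic livers, against 260 to 457 CPM (median 318) in FLO livers. The groups were far apart (log2FC -3.53, SE 0.37, FDR = 6.47e-06). Nr1i2, which encodes PXR, spanned 43.4 to 105 CPM in fibrotic livers, against 74.5 to 126 CPM in FLO livers and was not called (log2FC -0.37, SE 0.19, FDR = 0.114). Onecut1, a liver-enriched transcription factor, fell (log2FC -0.89, FDR = 0.00361), and Cebpb, an acute-phase and interleukin-responsive factor, rose (log2FC 0.98, FDR = 6.26e-05). Among the regulators not called, Foxa1, Foxa2, Foxa3, Cebpa, Rxra, Nr1h4, Ppara and Nr0b2 had log2FC values between -0.41 and 0.31. Among 6 genes of growth hormone signalling, 3 fell: the receptor gene Ghr (log2FC -0.81, SE 0.09, FDR = 4.15e-06), its transducer Stat5b (log2FC -0.62, FDR = 0.000871) and the repressor Bcl6 (log2FC -0.71, FDR = 0.00571).

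Por, the oxidoreductase, spanned 581 to 960 CPM (median 711) in fibrotic livers, against 504 to 867 CPM (median 785) in FLO livers (log2FC -0.01, SE 0.14, FDR = 0.976). Of the 5 electron partners, Cyb5r3, the cytochrome b5 reductase, fell (log2FC -1.03, SE 0.09, FDR = 3.06e-07), as did Cyb5a, cytochrome b5 itself (log2FC -0.69, SE 0.12, FDR = 0.000152). Pgrmc1, a heme-binding P450 partner, was lower without overlap but short of the fold threshold (log2FC -0.47, FDR = 0.0008). In heme synthesis 2 of 8 genes fell, Alad (log2FC -0.55) and Uros (log2FC -0.64), and the first enzyme, Alas1, was not called (log2FC -0.17, FDR = 0.524). In heme breakdown the oxygenases Hmox1 (log2FC 0.72, FDR = 0.00292) and Hmox2 (log2FC 0.58, FDR = 3.24e-06) rose, and the biliverdin reductase Blvra fell (log2FC -0.51, FDR = 0.000755). In all, 3 of these 37 partner and regulator genes rose and 10 fell, with a median log2FC of -0.17. Among all genes tested, 15.9% were called higher, 14.0% lower and 29.9% in either direction, with a median of 0.03.

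Other families of xenobiotic metabolism are given beside the 15.9% of all tested genes called higher and the 14.0% called lower. Of the tested genes, 1 of 3 rose and 1 fell in the Cyp1 family (median log2FC 0.40), 4 of 15 rose and 5 fell in Cyp4 (median -0.23), and 5 of 17 rose and 9 fell among the UDP-glucuronosyltransferases (Ugt, median -0.84). Among sulfotransferases (Sult) 1 of 12 rose and 2 fell (median -0.27), and among glutathione transferases (Gst) 3 of 20 rose and 4 fell (median -0.17).

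The cell type markers varied by list, beside 15.9% of all genes tested called higher and 14.0% called lower. The summed CPM of 8 hepatocyte markers ran from 73891 to 117029 in fibrotic livers, against 94410 to 110283 in FLO libraries. Of these markers Ahsg and Fgb rose and Apoa1 fell, while Alb was not called (log2FC -0.31, FDR = 0.0803). Of 8 macrophage and Kupffer cell markers 6 rose, and their summed CPM did not overlap (241 to 503 against 185 to 224). Of 8 cholangiocyte markers 6 were tested and 3 rose (summed CPM 96.5 to 297 against 59.8 to 102). Of 7 stellate cell and fibroblast markers 1 rose, Lrat (summed CPM 219 to 410 against 208 to 329). The collagen genes Col1a1 (log2FC -0.22, FDR = 0.611) and Col3a1 (log2FC -0.03, FDR = 0.925) were not called. The study likewise reported no Col1a1 difference in ob/ob mice given ethionine, and fibrotic is here the name that the labels give the group. Of 6 endothelial markers 1 fell, and their summed CPM did not overlap (119 to 157 against 171 to 193). Of 6 lymphocyte markers only Nkg7 was tested and it was not called (1.12 to 3.77 against 1.32 to 3.14 in summed CPM). Their part in the P450 results was not tested.

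The fibrotic libraries also differed among themselves. Fibrotic replicate 4 held the lowest value of its group for 27 of the 42 members and fibrotic replicate 3 the highest for 20. In the FLO group, replicate 6 was lowest for 16 members, and replicates 1 and 5 were highest for 12 each. Without fibrotic replicate 4, 16 members were called lower and 3 higher, and without fibrotic replicate 3, 18 and 3. The p-values are over separate mice, as 1 library was made per mouse.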

How the data were processed

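Poly(A)-selected RNA of 12 whole livers was sequenced, and the authors deposited raw whole-number counts per Ensembl gene. The submitters' processing notes name bcl2fastq, STAR 2.7.3a and mm10, and the study's methods name PISCES. The methods describe a stranded kit and a human reference, but the annotation and strand setting behind the mouse counts are not given in the sources used here, and some identifiers are newer than GENCODE M21 (GRCm38), from which coordinates and transcripts were taken.

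The members and lists were chosen with earlier results of these data known. Genes were tested in R 4.3.3 with edgeR 4.0.16 (robust quasi-likelihood fit on group, TMM, filterByExpr, Benjamini-Hochberg over 13416 genes), after the fit was tested on simulated data. The SE was the absolute log2 fold change divided by the square root of F. CPM per kb used the longest protein-coding transcript. SDs include counting error. Named with full values were, per subfamily, the most abundant member per kb and the called member with the largest change, members called higher, sex-biased members, and listed partners and regulators. Copies were members linked by protein identity of at least 95%, directly or through another member. All 30 pairs of libraries within groups differed beyond sampling noise.

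As alternatives, normalization was changed to RLE, to upper quartile, or to TMM computed without the 50 most counted genes. The low-count filter, the tool (DESeq2 1.42.0, or limma-voom of limma 3.58.1) and the thresholds were changed too. The remaining alternatives were a non-robust fit, the replicate number as a block, copies summed (including Cyp3a41a and Cyp3a41b, added after seeing the data) and each library left out.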

Additional observations from a re-analysis of the deposited data

Results flagged for a closer look

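In 5 of 96 group values examined (each member, and the summed CPM of subfamilies with several members, in each group of 6), 1 library stood apart from the rest, its gap to the nearest library divided by the group's range being above Dixon's 95% limit for 6 samples. Chance gives about 4.8 of 96. In FLO replicate 3, the library with Xist counts, Cyp2c40 and Cyp2c69 were the highest of the group, with ratios of 0.68 and 0.66. Cyp2d10 was highest in FLO replicate 5 (0.742), at 1235 CPM. Cyp3a16 was lowest in FLO replicate 4 (0.743), where it had 1 count. The summed CPM of the Cyp2a subfamily was highest in fibrotic replicate 4 (0.665), at 8370 CPM, the library that was lowest of its group for 27 of the 42 members.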

How the results depend on the processing

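Under every alternative the members called higher numbered 2 to 3 and those called lower 16 to 21, and leaving out 1 library gave 3 and 16 to 18. The log2 ratios of the subfamily sums moved by less than the spread between libraries under all scalings and with each library left out. The 37 partner and regulator genes gave 13 calls, 10 to 14 with 1 library left out, and 2 with an absolute log2 fold change over 1, a limit stricter by construction. Of 1037 values of single members under alternatives, 986 kept their direction and side of the threshold, 19 lost the call, 8 gained it and 24 changed sign. All sign changes were in members that were not called. With 1 library left out, their log2 fold changes ran from -0.13 to 0.12 for Cyp2a22, -0.25 to 0.09 for Cyp2b10, -0.17 to 0.18 for Cyp2c55, -0.23 to 0.17 for Cyp2c70, -0.44 to 0.02 for Cyp2d9, -0.09 to 0.01 for Cyp2d10, -0.04 to 0.65 for Cyp2s1 and -0.01 to 0.26 for Cyp3a11. Cyp2c55 was at -0.04 with limma-voom and -0.02 with the replicate block, Cyp2c70 at 0.0 with 10 counts required in every library, and Cyp3a25 at 0.08 with copies summed, with or without the Cyp3a41 pair. Calls were lost by Cyp2c29 and Cyp2c69 under several alternatives (FDR up to 0.0279 and 0.0188), and by Cyp2f2 and Cyp3a59 with the fold limit of 1. Cyp2e1 was called with upper quartile scaling, DESeq2, limma-voom, the block, the 0.05 threshold or without fibrotic replicate 3, and Cyp2d11 and Cyp2j6 with the 0.05 threshold. The cause was not tested. Other scalings moved the median of all genes by less than 0.1 on the log2 scale. Replicate numbers did not pair the samples: the correlations of same-numbered libraries were -0.162 to 0.104, and 0 of 6 correlated best with their own number. With the replicate block 3 members were called higher, 18 lower and 13 partner and regulator genes. Cyp2c69 was at -2.99 (FDR = 0.0188). Depth limits Cyp2c69, Cyp2g1, Cyp2j9, Cyp2s1 and Cyp3a16, which had under 10 counts in some libraries. Cyp3a16 met the member rule only through its fibrotic libraries, and Cyp2c69 and Cyp2j9 only through their FLO libraries.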

Other observations

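Pseudogenes of the same families were counted too, and 4 of them are described here. They were picked by name and not by a rule, so they give no share of pseudogenes that changed. In the Cyp2d cluster on chromosome 15, Cyp2d37-ps spanned 4.25 to 23 CPM in fibrotic livers against 52.6 to 124 CPM in FLO livers (log2FC -2.52, SE 0.33, FDR = 3.64e-05 by edgeR). Cyp2d38-ps spanned 0.234 to 1.26 CPM against 7.15 to 11.6 CPM (log2FC -4.18, SE 0.29, FDR = 3.66e-08). Cyp2d41-ps moved the other way, with 6.67 to 13.8 CPM against 0.513 to 1.18 CPM (log2FC 3.51, SE 0.23, FDR = 2.3e-08), or 131 to 295 against 10 to 21 counts. In all 3 the groups did not overlap, which held for 30.4% of all genes tested. Cyp2d41-ps is the gene with which Cyp2d40, the only called member of that cluster, shares most 50-base windows (149 of 1754), and Cyp2d40 fell. In the Cyp3a cluster on chromosome 5, Cyp3a63-ps spanned 0.861 to 6.64 CPM (16 to 137 counts) in fibrotic livers. It held 33 counts, or 1.41 CPM, in FLO replicate 3 and 0 to 0.118 CPM in the other FLO libraries. The groups overlapped through FLO replicate 3, and no fold change is given because nearly all FLO counts came from that library.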
